A study of Mus musculus with 12 samples.

Results

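The lysosomal proton pump, the lettered cathepsins and the lysosomal membrane proteins LAMP1 and LAMP2 were followed in mouse islets before and after transplantation. The members were chosen by name: every row of the expression table whose symbol began with Atp6v or Atp6ap, or was Cts followed by 1 letter, together with Lamp1 and Lamp2. That gave 46 of 23234 rows, of which 26 were proton pump rows, 18 were cathepsins and 2 were LAMPs. The samples were pancreatic islets of C57BL/6 mice, either isolated islets or grafts placed in inguinal subcutaneous white adipose tissue and taken 60 or 120 days later. Each group had 4 RNA-sequencing libraries made from total RNA. No transgene, deletion or drug is named for any group. Nothing in the labels ties the libraries of a group to separate animals. The p-values therefore cover only the spread among the sequenced libraries, part or all of which may be technical.

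The vacuolar ATPase is a rotary pump that acidifies lysosomes, endosomes and secretory granules. Its soluble V1 sector splits ATP in a head of A and B subunits, peripheral and central stalks carry the force, and its membrane V0 sector moves protons through a ring of proteolipid subunits held against an a subunit. In insulin-secreting cells it also acidifies the secretory granule, where prohormones are cut. Cathepsins are proteases that work in the acid lumen, some in nearly every cell and some mainly in phagocytes or bone-resorbing osteoclasts. LAMP1 and LAMP2 are the abundant glycoproteins that line the lysosomal membrane.

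The question was how the expression of these genes compares between isolated islets and grafts. Day 60 grafts had higher RNA of 8 of the 11 cathepsins tested and lower RNA of 4 of the 19 pump genes tested, while 3 pump genes were higher. Over all genes tested, 31.3% were higher and 12.3% lower at that time. The largest cathepsin difference was in Ctsk, an osteoclast and fibroblast collagenase, at 4.15 on the log2 scale (SE 0.64, n = 4 against 4). Atp6v0d2, an alternative d subunit known from osteoclasts and macrophages, differed by 3.09 (SE 0.38), but it passed the filter on low values only through the grafts. Without it, 2 of 18 pump genes were higher and 4 lower. Under other scalings of the libraries, 0 to 8 of the 19 pump genes were lower at day 60, against 4.25% to 21.7% over all genes. Day 120 grafts had 5 cathepsins and 2 pump genes higher and 2 pump genes lower than isolated islets, against 24.3% and 7.03% over all genes. When single libraries were left out, cathepsins higher at day 120 ran from 1 to 7. Pump genes higher then ran from 0 to 3 and lower from 0 to 4. Over all genes the share higher ran from 10.4% to 35.5% and the share lower from 2.96% to 9.81%. Between the day 120 and day 60 grafts limma called no member, against 0.00744% higher and 0.00744% lower over all genes. In such whole-tissue RNA, fewer cells of a type and less RNA per cell cannot be told apart.

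Values are FPKM, fragments scaled to gene length and library size, so levels of different genes can be compared per length. Differences are on the log2(FPKM + 1) scale, which understates the change of low genes. A gene was called higher or lower when its limma p-value, adjusted over all 13433 genes tested, was under 0.05. Of the 46 members, 32 were tested, having reached 1 FPKM in at least 4 libraries. Of these, 30 reached 1 FPKM in all 4 isolated islet libraries, and 2 passed only with the help of the grafts. Atp6v0d2 reached 1 FPKM in 0 of the 4, so it could pass only by differing. Ctsk reached it in 3 of the 4 and needed 1 graft library.

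The FPKM of a library added up to 396769 at the least and 786366 at the most, and the depth is unknown. Day 60 replicate 1 stood apart from the other grafts, with macrophage markers summing to 5887 FPKM, and it was the highest library for 9 of the 11 tested cathepsins. Isolated islet replicate 1 stood apart from the other isolated islets: for 22.4% of the 13433 genes tested it alone lay in the range of the grafts while the other 3 all lay on one side of it, against 0.849% to 1.18% for the other isolated islet libraries. Among the members this held for 6 of 32, Atp6v0a2, Atp6v1e1, Atp6v1f, Atp6v1g2, Atp6v1h and Ctso. The 20 endocrine reference genes, such as chromogranins and granule proteins, summed to 12235 to 14787 FPKM in isolated islets, 4985 to 17904 in day 60 grafts and 16014 to 18730 in day 120 grafts. Of the hormone genes, Ins2 was listed at 0 in all 8 grafts and in 2 isolated islet libraries, which can be a failed estimate. Digestive enzyme genes of the exocrine pancreas summed to at least 10346 FPKM in each isolated islet library and to at most 93.3 in any graft.

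Many lysosomal genes carry the CLEAR motif near their start, the site read by the transcription factor TFEB and its relatives, whose core is CACGTG and whose longer palindrome is TCACGTGA. Promoters of 34 of the 46 members were in the RefSeq table (GRCm38.p6, 250 bases before to 50 after each start), as 38 entries. CACGTG, which reads the same on both strands, was found in 9 of the 38 entries (23.7%), against 7.15% of all 32851 promoters in the table. TCACGTGA, each copy of which also holds a CACGTG, was found in 5 (13.2%), against 0.974%. The 9 genes with CACGTG were Atp6v0b, Atp6v0d1, Atp6v0e, Atp6v1a, Ctsa, Ctsd, Ctsf, Ctsl and Lamp1. In day 60 grafts 3 of these 9, Ctsa, Ctsd and Atp6v0e, were higher and none was lower. Of the 25 matched members without the motif, 15 were tested, of which 6 were higher and 3 lower. At day 120, 1 of the 9 was higher and none lower, and 4 of the 15 were higher and 2 lower. Over all genes tested 31.3% were higher and 12.3% lower at day 60, and 24.3% and 7.03% at day 120. Whether members with and without the motif differed was not tested. A match is a description of these letters and not a measured binding site.

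The 250 bases before the start are shown for 3 members with the motif, 1 each from the cathepsins, the pump and the LAMPs, and for the 2 cathepsins most often linked to phagocytes and osteoclasts, which have none in this window. Capitals mark CACGTG or TCACGTGA. All are 5′ to 3′ on the gene's strand, from RefSeq (GRCm38.p6), a later build than the one named for the expression values: Ctsd at chr7:142387828-142388077 (minus strand), Atp6v1a at chr16:44139260-44139509 (minus strand), Lamp1 at chr8:13158911-13159160 (plus strand), Ctsk at chr3:95498960-95499209 (plus strand) and Ctss at chr3:95526536-95526785 (plus strand). The choice was made with the results known.
Ctsd: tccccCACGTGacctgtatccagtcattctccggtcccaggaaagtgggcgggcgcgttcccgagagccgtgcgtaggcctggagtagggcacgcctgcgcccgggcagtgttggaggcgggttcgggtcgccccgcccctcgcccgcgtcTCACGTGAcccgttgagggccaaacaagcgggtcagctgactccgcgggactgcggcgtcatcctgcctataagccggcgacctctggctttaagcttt
Atp6v1a: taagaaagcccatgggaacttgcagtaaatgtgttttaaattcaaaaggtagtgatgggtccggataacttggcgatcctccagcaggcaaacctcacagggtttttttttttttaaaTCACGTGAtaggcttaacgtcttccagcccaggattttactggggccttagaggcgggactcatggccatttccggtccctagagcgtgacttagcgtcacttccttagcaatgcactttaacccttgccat
Lamp1: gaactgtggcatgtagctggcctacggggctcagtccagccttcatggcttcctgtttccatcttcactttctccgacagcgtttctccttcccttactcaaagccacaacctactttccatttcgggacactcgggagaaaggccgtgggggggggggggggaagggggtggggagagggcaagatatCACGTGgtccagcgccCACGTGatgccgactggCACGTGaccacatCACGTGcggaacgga
Ctsk: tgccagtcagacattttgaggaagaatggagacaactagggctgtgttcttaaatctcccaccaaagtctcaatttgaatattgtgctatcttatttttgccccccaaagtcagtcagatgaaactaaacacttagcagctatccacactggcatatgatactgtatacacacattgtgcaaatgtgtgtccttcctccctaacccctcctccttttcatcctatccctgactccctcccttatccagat
Ctss: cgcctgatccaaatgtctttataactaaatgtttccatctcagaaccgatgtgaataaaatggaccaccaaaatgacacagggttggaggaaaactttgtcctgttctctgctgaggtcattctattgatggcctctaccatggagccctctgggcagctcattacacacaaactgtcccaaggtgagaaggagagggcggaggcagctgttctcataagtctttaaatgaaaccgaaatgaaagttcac
The Ctsd window holds CACGTG 245 and 98 bases before the start, the second inside TCACGTGA. Atp6v1a has 1 TCACGTGA, with its core 131 bases before the start. Lamp1 has 4 cores, at 61, 45, 28 and 15 bases.

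Ctsd, the main aspartic protease of the lysosome, was on average the most abundant cathepsin in all 3 groups. It was at 109, 127, 114 and 112 FPKM in the 4 isolated islet libraries. Day 60 grafts had 779, 126, 289 and 268 FPKM, and day 120 grafts had 186, 137, 152 and 203. Replicate 2 of day 60 lay within the isolated islet range, the other 3 above it, and every day 120 library lay above it. At day 60 the difference was 1.34 (SE 0.40, limma adjusted p = 0.0173), and at day 120 it was 0.53 (SE 0.40, limma adjusted p = 0.315). The wider spread of day 60 enters the shared estimate of error: in a fit of isolated islets and day 120 grafts alone, the same 0.53 had a limma adjusted p of 0.013.

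Ctsk degrades collagen in bone and matrix. It was at 0.574, 2.45, 2.17 and 1.83 FPKM in isolated islets. Day 60 grafts had 233, 15.8, 35.3 and 32.6 FPKM, and day 120 grafts had 21.5, 12.7, 10.1 and 27.9. All 8 grafts lay above all 4 isolated islet libraries, with replicate 1 of day 60 far above the rest. The log2 difference was 4.15 at day 60 (SE 0.64, limma adjusted p = 0.000857) and 2.75 at day 120 (SE 0.64, limma adjusted p = 0.0106).

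Ctss, the protease that trims the invariant chain of class II molecules in antigen-presenting cells, showed the same order of groups. Its values were 15.5, 24.3, 18.1 and 14.5 FPKM in isolated islets, 429, 53.9, 103 and 88.1 at day 60, and 73.8, 38.3, 39.5 and 66.1 at day 120. No graft overlapped the isolated islets. The log2 difference was 2.70 at day 60 (SE 0.49, limma adjusted p = 0.00179) and 1.51 at day 120 (SE 0.49, limma adjusted p = 0.0366). The day 120 call was kept in 14 of 25 alternative settings, and lost without any single isolated islet or day 120 library.

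Ctsh, an aminopeptidase of the cysteine group, was at 6.95, 5.22, 3.44 and 5.04 FPKM in isolated islets. It was at 192, 31.9, 40.3 and 24.4 at day 60 and at 26.04, 15.0, 14.4 and 20.2 at day 120. Every graft again lay above every isolated islet library. The log2 differences were 3.07 (SE 0.50, limma adjusted p = 0.000974) at day 60 and 1.68 (SE 0.50, limma adjusted p = 0.0246) at day 120. The day 120 call was kept in 18 of 25 settings and lost without any one of isolated islet replicates 2, 3 and 4 or day 120 replicates 1 and 4.

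Ctsc, the dipeptidyl peptidase that activates the serine proteases of immune cell granules, was near 4 FPKM in isolated islets (4.39, 5.25, 4.01 and 3.99). Day 60 grafts had 93.1, 12.8, 25.3 and 12.2 FPKM, and day 120 grafts had 15.0, 8.03, 6.80 and 14.2. The graft values did not overlap the isolated islets at either time. The day 60 difference of 2.27 passed (SE 0.50, limma adjusted p = 0.00441). The day 120 difference of 1.09 did not (SE 0.50, limma adjusted p = 0.113).

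Ctsz, a carboxypeptidase, was 1.44 higher at day 60 on the log2 scale (SE 0.34, limma adjusted p = 0.00579), from 26.1 ± 2.31 to 84.1 ± 57.2 FPKM (SD, n = 4 each). At day 120 it was at 43.4 ± 8.88 FPKM and did not pass (limma adjusted p = 0.129), although its lowest day 120 library, at 36.5, was above the highest isolated islet library, at 28.6. Ctsa and Ctso had smaller differences that passed at both times. Ctsa, a serine carboxypeptidase that also shields lysosomal beta-galactosidase and neuraminidase, was at 19.9, 21.4, 16.3 and 16.2 FPKM in isolated islets. It was at 51.9, 25.9, 30.9 and 36.8 FPKM at day 60 and at 26.2, 26.1, 28.5 and 35.9 at day 120, all above the isolated islets. Its log2 differences were 0.91 (SE 0.21, limma adjusted p = 0.00501) and 0.63 (SE 0.21, limma adjusted p = 0.0371). The day 120 call of Ctsa was kept in 15 of 25 settings, and was lost without isolated islet replicate 2, 3 or 4 or any single day 120 library.

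Ctso, a cysteine cathepsin, was at 16.6, 10.7, 9.88 and 8.17 FPKM in isolated islets. Its grafts had 25.0, 25.1, 18.6 and 19.01 FPKM at day 60 and 15.98, 23.0, 15.9 and 23.3 at day 120. At day 120, 2 grafts lay below isolated islet replicate 1. The log2 differences were 0.92 (SE 0.22, limma adjusted p = 0.00609) and 0.76 (SE 0.22, limma adjusted p = 0.0229). The day 120 call was kept in 17 of 25 settings, and was lost without isolated islet replicate 2, 3 or 4 or day 120 replicate 2 or 4.

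The other 3 tested cathepsins did not pass in either graft comparison. Ctsl, a broadly expressed endopeptidase, was at 74.7, 136, 104 and 134 FPKM in isolated islets, 253, 72.6, 112 and 92.1 at day 60, and 83.1, 82.1, 70.1 and 97.3 at day 120. Its groups overlapped, and its log2 differences were 0.10 (SE 0.33) and -0.40 (SE 0.33). Ctsb, an endopeptidase that also acts as a peptidyl-dipeptidase, was at 76.6 ± 22.2, 178 ± 164 and 69.4 ± 12.8 FPKM (SD, n = 4 each), and day 60 replicate 1 alone was at 420.0. Ctsf was at 21.2 ± 5.73, 23.7 ± 5.66 and 27.2 ± 5.81 FPKM.

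**Figure D1:**
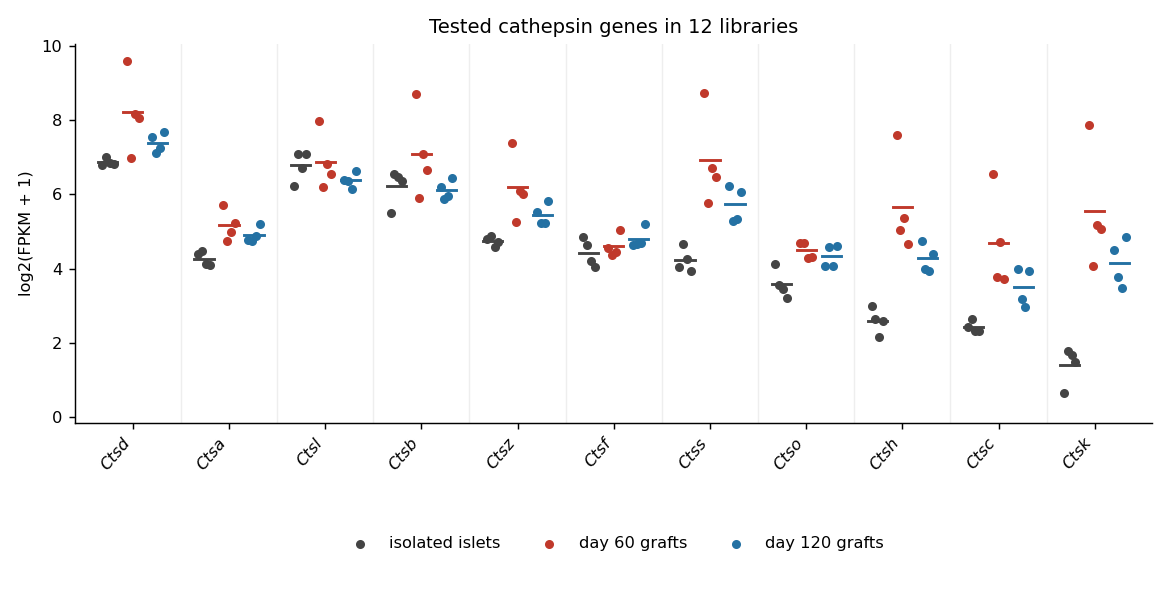
The 11 tested cathepsins in each library, as log2(FPKM + 1), with genes along the horizontal axis. Points are libraries, short lines are group means, and the groups are isolated islets (dark grey), day 60 grafts (red) and day 120 grafts (blue). Ctsk, Ctsh, Ctsc and Ctss separate grafts from isolated islets, Ctsl, Ctsb and Ctsf overlap, and the highest red point of most genes is day 60 replicate 1.

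In total, 8 of 11 tested cathepsins were higher and none was lower in day 60 grafts, with a median log2 difference of 1.34. Over all genes tested 31.3% were higher and 12.3% lower, with a median of 0.27. For day 120 grafts 5 of 11 cathepsins were higher and none was lower, with a median of 0.70. Over all genes 24.3% were higher and 7.03% lower, with a median of 0.30. Without Ctsk, which passed the filter with 1 graft library, 7 of 10 were higher at day 60 and 4 of 10 at day 120. Without day 60 replicate 1, 8 cathepsins were higher at day 60. The day 120 count was less steady: it ran from 1 to 7 when single libraries were left out and was 0 when libraries were scaled to the endocrine reference genes. In the same fits the share of all genes higher at day 120 ran from 10.4% to 35.5% and was 1.5%.

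The mixture of cathepsin RNA also differed, given here as shares of the summed FPKM of the 18 cathepsins, with no test. That sum was 348 to 479 FPKM in isolated islets, 485 to 2669 at day 60 and 461 to 666 at day 120. Ctsd held a similar share in each group, 28.3%, 30.7% and 31.2%. Ctsl held 27.0% ± 4.48 in isolated islets, 12.3% ± 2.26 at day 60 and 15.4% ± 1.62 at day 120 (SD, n = 4 each), and its graft shares did not overlap those of isolated islets. Ctss held 4.37% ± 0.671, 12.6% ± 2.33 and 9.83% ± 1.93. Ctsk held 0.414%, 5.06% and 3.19%, and Ctsh held 1.29%, 5.38% and 3.45%.

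Of the proton pump, the V1 head was represented by Atp6v1a, the catalytic A subunit, and Atp6v1b2, the B subunit form not limited to kidney and inner ear. Atp6v1b2 was at 73.1, 84.1, 86.0 and 78.7 FPKM in isolated islets, 57.9, 47.4, 54.0 and 62.0 at day 60, and 56.6, 65.0, 52.7 and 71.5 at day 120. Every graft lay below every isolated islet library. The log2 difference passed at day 60 (-0.54, SE 0.15, limma adjusted p = 0.0140) and not at day 120 (-0.39, SE 0.15, limma adjusted p = 0.0667). Atp6v1a was at 21.8 ± 1.54, 21.5 ± 7.09 and 17.3 ± 2.14 FPKM (SD, n = 4 each), with differences of -0.07 and -0.33 that did not pass.

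Among the 7 tested stalk subunits, Atp6v1e1 and Atp6v1g2 passed in opposite directions at both times. Atp6v1e1, the E subunit of the peripheral stalk, was at 107, 185, 180.4 and 170.3 FPKM in isolated islets, 118, 73.6, 88.3 and 91.8 at day 60, and 82.9, 89.3, 82.5 and 108 at day 120. Apart from isolated islet replicate 1, which lay within the graft range, the isolated islet libraries were all above the grafts. The log2 differences were -0.77 (SE 0.21, limma adjusted p = 0.0112) and -0.80 (SE 0.21, limma adjusted p = 0.0158). At day 120 the call was lost without isolated islet replicate 2, 3 or 4.

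Atp6v1g2, the G subunit form known from neurons, was low throughout, at 4.05, 2.66, 1.41 and 1.47 FPKM in isolated islets. Day 60 grafts had 2.85, 8.51, 8.33 and 8.96 FPKM, and day 120 grafts had 4.64, 7.44, 5.75 and 7.56. Day 60 replicate 1, the highest library for most cathepsins, was here the lowest graft and lay within the isolated islet range. The log2 differences were 1.24 (SE 0.33, limma adjusted p = 0.00986) and 1.16 (SE 0.33, limma adjusted p = 0.0202). At day 120 the call was lost without isolated islet replicate 3 or 4 or day 120 replicate 2 or 4. Its ubiquitous counterpart Atp6v1g1 was at 84.0, 97.9 and 88.5 FPKM on average and did not pass, so Atp6v1g2 held 2.68% of the 2 genes' summed FPKM in isolated islets, 7.37% at day 60 and 6.68% at day 120.

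The 5 remaining stalk genes, Atp6v1c1, Atp6v1d, Atp6v1f, Atp6v1g1 and Atp6v1h, had log2 differences between -0.20 and 0.38 in both graft comparisons, and none passed. The largest of them, Atp6v1f at day 60, was 0.38 (SE 0.17, limma adjusted p = 0.0921).

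In the membrane sector, Atp6v0c, the proteolipid that builds the proton-carrying ring, was the most abundant member in isolated islets. It was at 243, 335, 267 and 285 FPKM there, 218, 119.6, 172 and 218 at day 60, and 195, 170.4, 159.8 and 219.7 at day 120. All grafts lay below all isolated islet libraries. The log2 differences of -0.66 (SE 0.21, limma adjusted p = 0.0250) and -0.60 (SE 0.21, limma adjusted p = 0.0487) were close to the threshold, and the calls were kept in 17 and 14 of 25 alternative settings. Both were lost without isolated islet replicate 2, 3 or 4 or day 60 replicate 3, the day 60 call also without day 60 replicate 2, and the day 120 call also without any single day 120 library. Reads of Atp6v0c can also fall on its pseudogene copies: Atp6v0c-ps2 was at 6.19 FPKM in day 60 replicate 3 and 7.85 in day 120 replicate 2 and at most 0.004 in the other libraries, so its counting is uncertain. The related ring subunit Atp6v0b was at 97.6 ± 16.8, 126 ± 8.10 and 128 ± 18.1 FPKM and did not pass (limma adjusted p = 0.0873 and 0.0931).

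The d subunit joins the ring to the central stalk. Its ubiquitous form Atp6v0d1 was at 56.7 ± 5.53, 58.6 ± 13.6 and 64.9 ± 7.30 FPKM (SD, n = 4 each), and its log2 differences of 0.02 and 0.19 did not pass. Atp6v0d2 was listed at 0, 0.033, 0.042 and 0.063 FPKM in isolated islets, at 19.3, 2.98, 7.81 and 7.38 at day 60, and at 1.099, 1.45, 1.64 and 3.25 at day 120. Every graft was above every isolated islet library, and 3 of the 4 day 60 grafts were also above every day 120 graft. The log2 differences were 3.09 (SE 0.38, limma adjusted p = 0.000225) and 1.41 (SE 0.38, limma adjusted p = 0.0177), the latter not passing without day 120 replicate 4. Of the summed FPKM of both d genes, Atp6v0d2 made up at most 0.123% in isolated islets, 6.91% to 24.1% at day 60 and 1.64% to 4.16% at day 120.

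Of the e subunits, small membrane proteins of the V0 sector, Atp6v0e was at 49.7 ± 10.1 FPKM in isolated islets, 108 ± 59.7 at day 60 and 71.8 ± 10.3 at day 120. It passed at day 60 (0.98, SE 0.29, limma adjusted p = 0.0170), though not without isolated islet replicate 3 or 4, and not at day 120 (0.53, SE 0.29, limma adjusted p = 0.173). The difference between the 2 times did not pass (-0.45, SE 0.29, limma adjusted p = 0.544). Its relative Atp6v0e2 was at 48.5 ± 7.67, 44.1 ± 19.8 and 56.3 ± 4.42 FPKM. In day 60 replicate 1 Atp6v0e2 made up 10.0% of both genes' FPKM, against 31.7% to 50.1% in the other day 60 grafts and 45.8% to 52.0% in isolated islets.

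The a subunits decide where the pump goes. Atp6v0a1 and Atp6v0a2 were at 38.0 ± 7.51 and 15.4 ± 3.09 FPKM in isolated islets, 27.8 ± 4.43 and 11.97 ± 1.15 at day 60, and 32.8 ± 3.34 and 13.2 ± 0.899 at day 120. Neither passed (limma adjusted p = 0.0656 and 0.117 at day 60). Atp6v0a4, the kidney form, stayed at or below 0.570 FPKM. The a3 form, named Tcirg1 and so outside the name rule, sits in osteoclast membranes and in insulin granules. It was at 4.201, 5.59, 4.75 and 4.18 FPKM in isolated islets, 19.3, 17.4, 10.5 and 13.1 at day 60, and 4.93, 7.17, 6.93 and 10.5 at day 120. Tcirg1 was higher at day 60 (1.47, SE 0.23, limma adjusted p = 0.000753), with no overlap, and did not pass at day 120 (0.53, SE 0.23, limma adjusted p = 0.0906).

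**Figure D2:**
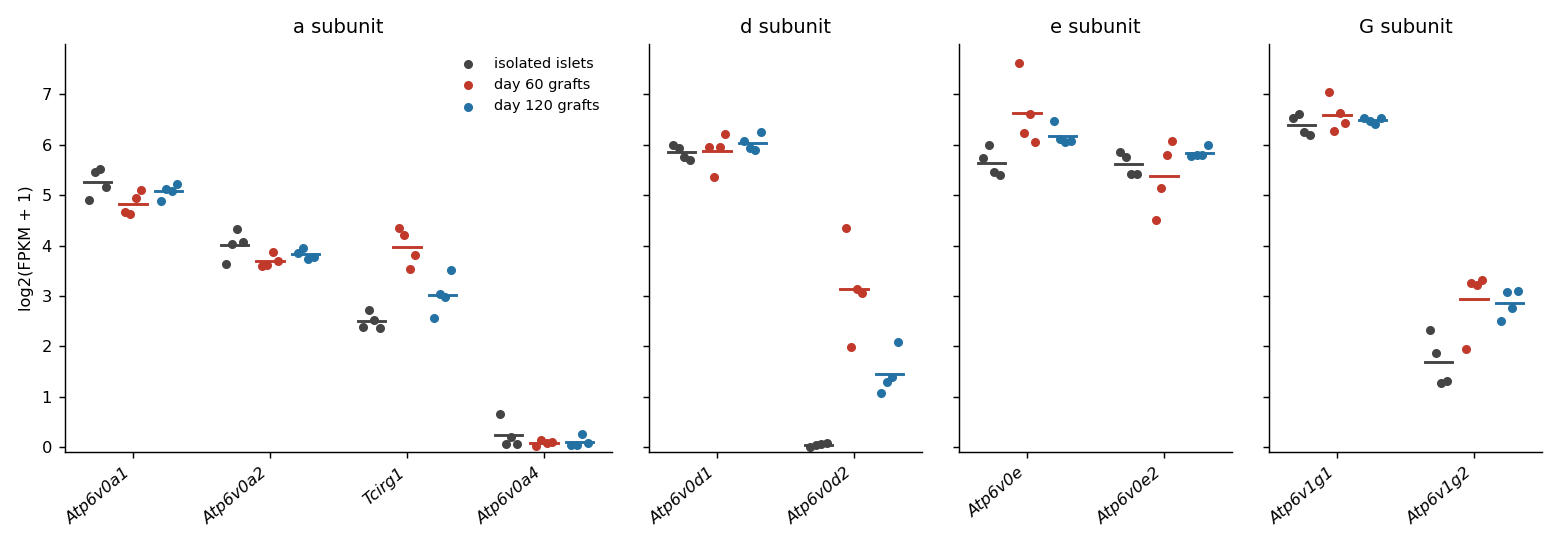
Alternative forms of 4 pump subunits in each library, as log2(FPKM + 1), in panels for the a, d, e and G subunits. Points are libraries and short lines are group means, coloured as isolated islets (dark grey), day 60 grafts (red) and day 120 grafts (blue). The points of the main forms Atp6v0a1, Atp6v0d1 and Atp6v1g1 overlap between groups, while Tcirg1, Atp6v0d2 and Atp6v1g2 have higher group means in day 60 grafts than in isolated islets.

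Of the accessory subunits, Atp6ap1 was at 102, 101, 96.2 and 86.2 FPKM in isolated islets, 93.1, 78.2, 99.2 and 117 at day 60, and 96.9, 105, 99.4 and 124 at day 120, and its groups overlapped. Atp6ap2, also known as the prorenin receptor, was at 101 ± 9.89 FPKM in isolated islets, 55.4 ± 12.2 at day 60 and 70.6 ± 15.0 at day 120 (SD, n = 4 each). Its highest graft, at 87.5, was below the lowest isolated islet library, at 90.0. The log2 difference was -0.88 at day 60 (SE 0.20, limma adjusted p = 0.00510). At day 120 it was -0.53 (SE 0.20, limma adjusted p = 0.0622), and it passed without day 60 replicate 1 (limma adjusted p = 0.0201).

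**Figure D3:**
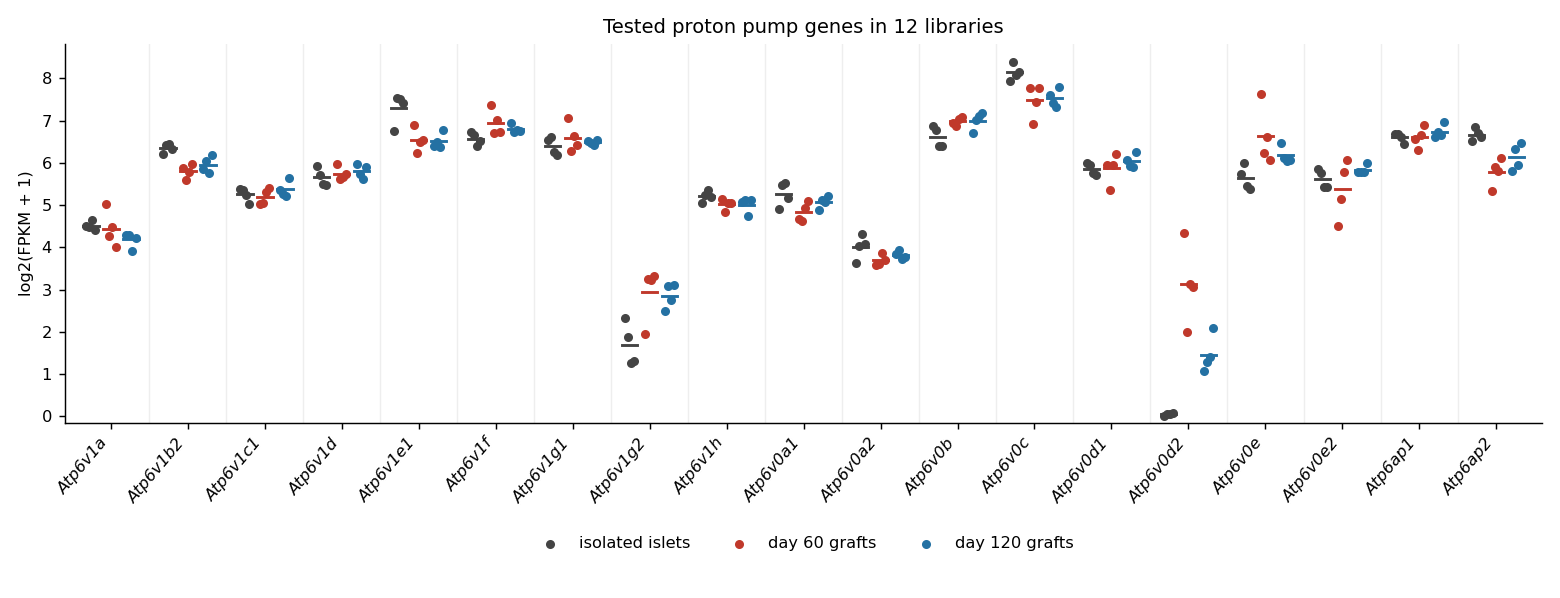
The 19 tested proton pump genes in each library, as log2(FPKM + 1), ordered along the horizontal axis from the V1 sector to the V0 sector and the accessory subunits. Points are libraries and short lines are group means of isolated islets (dark grey), day 60 grafts (red) and day 120 grafts (blue). Atp6v0d2 rises from near 0 in isolated islets, and Atp6v1b2, Atp6v0c and Atp6ap2 have all graft points below the isolated islet points.

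Together, 3 of 19 tested pump genes were higher and 4 lower at day 60, with a median log2 difference of -0.06, and 2 were higher and 2 lower at day 120, with a median of 0.12. Without Atp6v0d2 the counts were 2 and 4 of 18 at day 60 and 1 and 2 of 18 at day 120. Without isolated islet replicate 1 they were 4 and 6 of 19 at day 60 and 3 and 3 at day 120, with Atp6v0b joining the higher genes at both times, Atp6v0a1 and Atp6v0a2 the lower ones at day 60 and Atp6v1b2 at day 120. The shares over all genes, 31.3% and 12.3% at day 60 and 24.3% and 7.03% at day 120, are the backgrounds for these counts. The balance depended on how libraries were scaled. At day 60 the higher and lower pump counts were 3 and 7 with upper-quartile scaling or quantile normalization, 2 and 8 when hormone and digestive enzyme genes were left out of the library sum, and 2 and 0 with endocrine reference scaling. The median of all genes at day 60 moved from 0.27 to 0.13, -0.04, -0.06 and 0.46 under these settings, in the same order. No called member changed direction.

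LAMP1 RNA was at 182, 231, 234 and 203 FPKM in isolated islets, 285, 116, 164 and 203 at day 60, and 192, 168, 166 and 247 at day 120. The groups overlapped, and the log2 differences of Lamp1 were -0.21 (SE 0.25) and -0.15 (SE 0.25). Lamp2, whose product takes part in fusion of autophagosomes and chaperone-mediated autophagy, was at 65.3 ± 6.24, 101 ± 56.0 and 74.2 ± 14.6 FPKM and did not pass either. Both LAMPs together summed to 253 to 302 FPKM in isolated islets, 193 to 469 at day 60 and 219 to 322 at day 120.

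**Figure D4:**
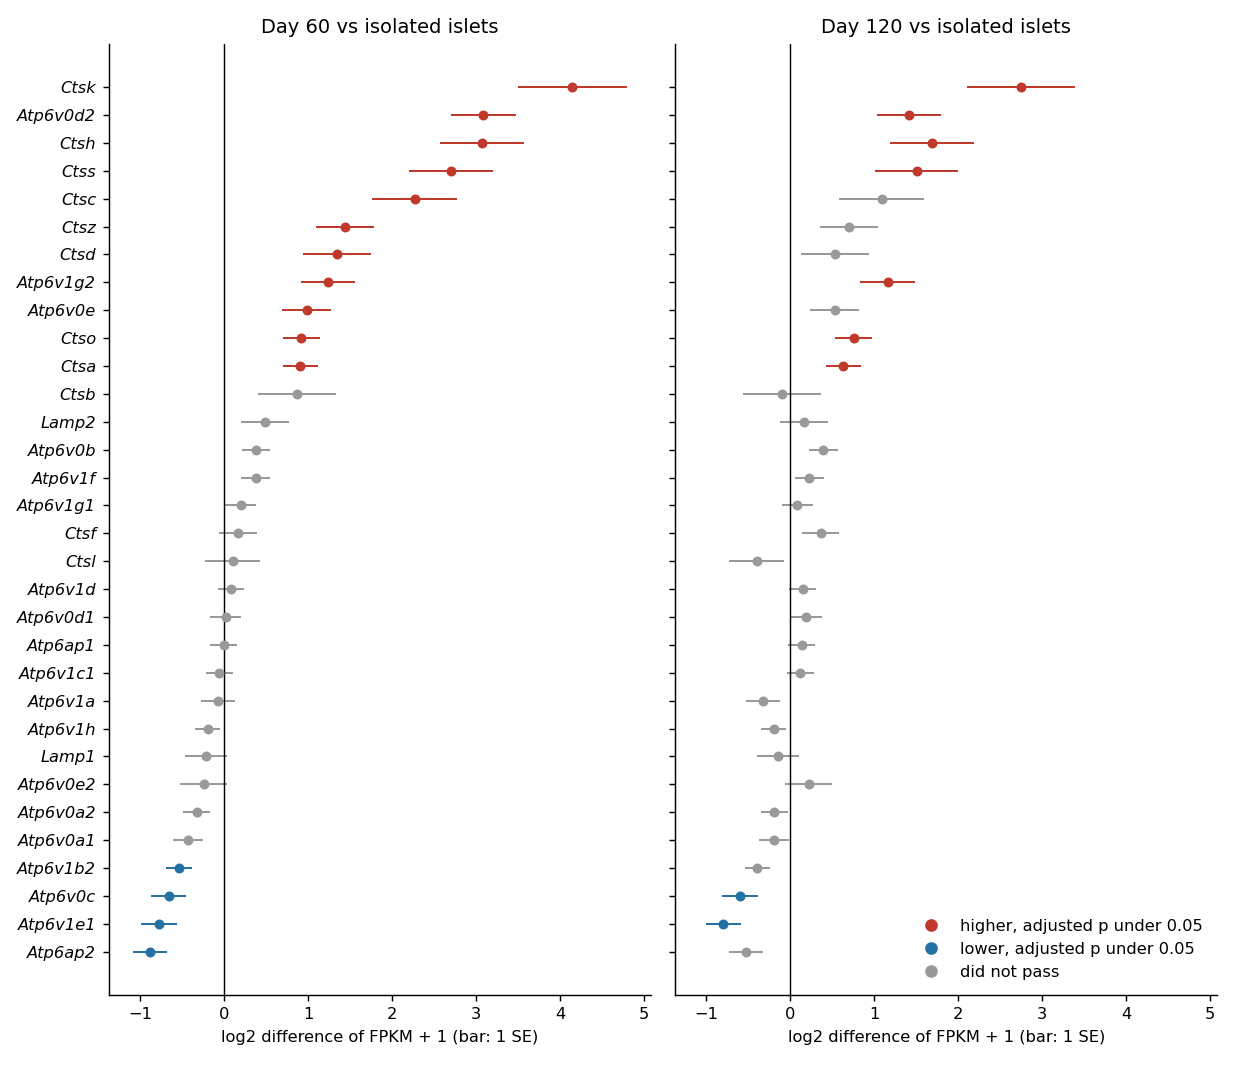
Log2 differences of FPKM + 1 for the 32 tested members, day 60 grafts against isolated islets on the left and day 120 grafts against isolated islets on the right. Points are limma estimates, bars are 1 SE, and colour marks genes higher (red), lower (blue) or not past the threshold (grey). Cathepsins fill most of the upper end, with Ctsk at 4.15 and 2.75, and Atp6ap2, Atp6v1e1, Atp6v0c and Atp6v1b2 the lower end.

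Over all 32 tested members, 11 were higher and 4 lower in day 60 grafts, and 7 were higher and 2 lower in day 120 grafts. Among the 30 members measured in every isolated islet library, 9 were higher and 4 lower at day 60, and 5 and 2 at day 120. The member totals are near the shares over all genes (31.3% and 12.3%, then 24.3% and 7.03%), and the median member differed by 0.18 at both times, against 0.27 and 0.30 for all genes. With day 60 replicate 1 left out the counts were 11 and 4 at day 60 and 10 and 4 at day 120, against 34.8% and 11.8%, then 35.5% and 9.67%, over all genes. Without isolated islet replicate 1 they were 12 and 6, and 7 and 3, against 37.3% and 14.2%, then 31.6% and 9.81%. Without both isolated islet replicate 1 and day 60 replicate 1 they were 12 and 6, and 11 and 5, and the lower members at day 120 then included Ctsl (-0.58, limma adjusted p = 0.0145). Over all genes that fit called 42.6% higher and 15.4% lower at day 60, and 43.0% and 13.5% at day 120. Member counts at day 60 were 11 and 7 with upper-quartile scaling or quantile normalization, 9 and 9 without hormone and digestive enzyme genes in the sum, and 8 and 0 with endocrine reference scaling. Over all genes the day 60 shares higher and lower were 25.8% and 16.8% with upper-quartile scaling, 17.8% and 21.7% with quantile normalization, 17.6% and 21.2% with the reduced sum, and 21.8% and 4.25% with endocrine reference scaling. At day 120 these 4 settings gave 6 and 4, 4 and 3, 4 and 4, and 0 and 0 members. The shares over all genes were then 17.5% and 9.92%, 11.4% and 13.6%, 13.8% and 9.42%, and 1.5% and 3.54%.

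Between day 120 and day 60 grafts limma called none of the 32 members, with 6 at an unadjusted p under 0.05. Over all genes 0.00744% were higher and 0.00744% lower, 1 gene each, and 1356 of 13433 had an unadjusted p under 0.05. The 6 members were Atp6v0d2, Ctsh, Ctss, Ctsc, Ctsz and Ctsk, with log2 differences from -1.67 to -0.74. The median cathepsin differed by -0.81 and the median pump gene by 0.06, against 0.03 for all genes. Same-numbered day 60 and day 120 grafts were read as pairs from their correlated deviations, as described with the processing, though the labels state no pairing. In all 4 pairs Atp6v0d2, Ctsb, Ctsh, Ctsk, Ctss and Ctsz had lower FPKM at day 120, and Atp6ap1, Atp6ap2, Atp6v0a1 and Ctsf had higher FPKM. How many of all genes had the same direction in all 4 pairs was not counted, so these names are a description only. With the pair as a block no member passed either. Scaled to the endocrine reference genes, all 19 pump genes and all 11 cathepsins had differences below 0, and the median of all genes was -0.52.

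The 14 untested members stayed low. Those listed at 0 in all 12 libraries were Atp6v1e2, Atp6v1g3 and the placental cathepsins Ctsj, Ctsm, Ctsq and Ctsr. Atp6v1b1, the B subunit of kidney and inner ear, was at most 0.047 FPKM, Ctsg, a neutrophil and mast cell granule protease, at most 0.117, and Atp6ap1l at most 0.3. Atp6v1c2 and Ctse stayed under 1 FPKM, with highest values of 0.864 and 0.979. Ctsw, known from cytotoxic lymphocytes, was at most 0.186 FPKM in isolated islets, at 1.79, 5.26, 1.13 and 0.975 at day 60, and at most 0.770 at day 120. All day 60 grafts were above all other libraries for Ctsw, but only 3 libraries reached 1 FPKM and it was not tested.

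Markers of several other cell types were higher in grafts too. The backgrounds are the shares over all genes, 31.3% higher and 12.3% lower at day 60, and 24.3% and 7.03% at day 120. In isolated islets, 5 of the 19 macrophage, 4 of the 10 fibroblast and 2 of the 10 adipocyte markers were under 1 FPKM in every library. Those could pass the filter only through the grafts. The 19 macrophage markers in the table summed to 78.2 to 128 FPKM in isolated islets, 645 to 5887 at day 60 and 460 to 789 at day 120. Of these, 18 were higher at day 60 and 15 at day 120, with none lower, and none of the 19 was at 0 throughout isolated islets. Among them Lyz2, the lysozyme of phagocytes, ranged from 6.59 to 7.95 FPKM in isolated islets and from 122 to 2519 in grafts. The 10 fibroblast markers summed to 20.3 to 27.9, 820 to 5983 and 341 to 837 FPKM, and all 10 were higher at both times. The 10 adipocyte markers summed to 70.8 to 74.1, 343 to 11617 and 280 to 1104 FPKM, with 9 higher at day 60 and 7 at day 120.

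Results for other marker lists were mixed. Of 8 endothelial markers, 3 were higher at day 60 and 2 at day 120, near the shares over all genes of 31.3% and 24.3%. Their sums of 87.2 to 114, 97.1 to 229 and 86.6 to 195 FPKM overlapped between groups. Of 5 tested T and NK cell markers, 5 were higher at day 60 and 1 at day 120, and of 3 tested B cell markers, 1 was higher at each time. The day 60 call of the T cell marker Cd3d was kept in 5 of 24 settings. Of 7 tested mast cell markers, 5 were higher at day 60 and 4 at day 120. The 3 tested neutrophil markers, S100a8, S100a9 and Retnlg, were higher at both times, with a median log2 difference of 3.73 at day 60 and 5.13 at day 120. All 3 had differences above 0 between day 120 and day 60, where the median cathepsin was below 0, but none of the 3 passed. In isolated islets, 9 of 10 T and NK cell, 9 of 10 mast cell and 8 of 9 neutrophil markers were under 1 FPKM in every library. Those of them that were tested passed the filter only through the grafts, so their being higher was largely set by the filter.

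The 6 osteoclast or giant cell markers in the table summed to 4.76 to 5.88, 18.1 to 173 and 14.8 to 25.7 FPKM. The 3 that could be tested, Acp5, Mmp9 and Nfatc1, were higher at both times, against 31.3% and 24.3% over all genes. At day 120 Acp5 and Mmp9 lost their calls without some single libraries. Mmp9 was at most 0.816 FPKM in isolated islets, so it passed the filter only through the grafts. The other 3 were not tested. Calcr, the calcitonin receptor that defines osteoclasts, was listed at 0 in all grafts, and Oscar was at most 0.139 FPKM. Tm7sf4, which encodes a protein of osteoclast and giant cell fusion, was at 1.03 FPKM in day 60 replicate 1 and at most 0.364 in the other grafts, against at most 0.163 in isolated islets. The highest macrophage, fibroblast and adipocyte sums were all in day 60 replicate 1, which also had the highest Ctsk, Ctss, Ctsh, Ctsc and Atp6v0d2 values, and its endocrine reference sum was the lowest of all. The part of these cell types in the member differences was not tested. Without that library, the day 60 differences of Ctsk, Ctss, Ctsh, Ctsc and Atp6v0d2 were 3.37, 2.09, 2.43, 1.65 and 2.68, and all passed.

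**Figure D5:**
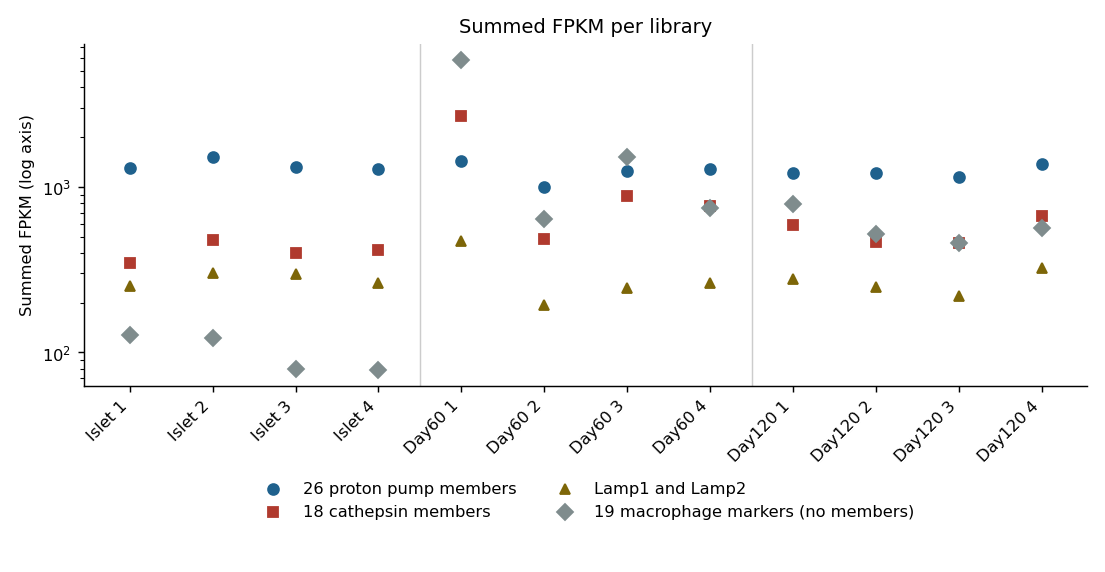
Summed FPKM per library (log axis) of the 26 pump members (circles), 18 cathepsins (squares), Lamp1 and Lamp2 (triangles) and 19 macrophage markers that are not members (diamonds). The pump sum stays between 994 and 1511 FPKM in all 12 libraries, while cathepsin and macrophage sums are highest in day 60 replicate 1, at 2669 and 5887.

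Other parts of the lysosome were read from lists of textbook genes that are not members. The backgrounds for the counts of these lists are the shares over all genes. These were 31.3% higher and 12.3% lower at day 60, and 24.3% and 7.03% at day 120. Of 14 tested pump assembly factors and pump subunits outside the name rule, 4 were higher at day 60 and 3 at day 120, with none lower. They included Oxr1, a relative of regulators that detach the pump's sectors (1.53 at day 60 and 1.57 at day 120, limma adjusted p = 0.00477 and 0.00804), and the assembly factor Ccdc115 (0.52 and 0.58, limma adjusted p = 0.0202 and 0.0198). For both, isolated islet replicate 1 lay in the range of the grafts: Oxr1 was at 41.2 FPKM there, at 10.5 to 10.9 in the other isolated islets and at 39.9 to 55.4 in grafts. The calls of Ccdc115 were kept in 16 and 17 of 25 settings, and were lost at both times without isolated islet replicate 2 or 3. Of 45 soluble hydrolases, 19 were higher and 1 lower at day 60, and 15 and 0 at day 120, with medians of 0.36 and 0.40. Among these, the carboxypeptidase gene Prcp was 2.42 and 1.55 higher (the latter not without isolated islet replicate 3 or 4) and the thioesterase gene Ppt2 1.42 and 1.27 higher. Dnase2a, the acid nuclease, passed at day 60 (1.43) and not at day 120 (0.60).

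Of 30 lysosomal membrane and transport genes, 15 were higher and 3 lower at day 60, and 12 and 2 at day 120. Cd68 stands both here and among the macrophage markers. Gpnmb, a glycoprotein of lipid-laden macrophages, was at most 0.149 FPKM in isolated islets and at 3.83 to 62.0 in grafts, and Clcn7, the chloride exchanger of the lysosome, was 1.02 and 0.87 higher. The lower genes were Scarb2, which carries glucocerebrosidase to lysosomes (-1.09 and -0.92), Cd164 (-0.81 and -0.56) and, at day 60, the cholesterol transporter Npc1 (-0.54). Scarb2 was at 45.7 FPKM in isolated islet replicate 1, against 75.02 to 103 in the other isolated islets and 28.6 to 47.2 in grafts, and Npc1 was at 6.76 against 10.4 to 12.4 and 4.88 to 8.84. The call of Npc1 was kept in 13 of 25 settings and that of Cd164 at day 120 in 15, and both were lost without isolated islet replicate 2, 3 or 4. Npc2, its soluble partner, did not pass at either time (0.83 and 0.14).

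The sorting and control genes had calls in both directions. Of 14 genes of mannose 6-phosphate sorting, 3 were higher and 1 lower at day 60, and 3 and 0 at day 120. Over all genes 31.3% were higher and 12.3% lower at day 60, and 24.3% and 7.03% at day 120. Igf2r, the receptor that brings hydrolases to lysosomes, was the lower one (-0.78, limma adjusted p = 0.0105) and did not pass at day 120 (-0.37). Of 14 genes of the Ragulator, mTOR and TFEB group, 2 were higher and 3 lower at day 60, and 3 and 2 at day 120. Lamtor2, a Ragulator scaffold, was higher (1.30 and 1.04), while Fnip1, a folliculin partner (-1.30 and -1.21), and the transcription factor gene Tfe3 (-0.94 and -0.79) were lower at both times. Mitf, another relative of TFEB, was called higher at both times, in 23 of 24 settings at day 60 and 10 of 24 at day 120. Its isolated islet replicate 1 was at 2.44 FPKM, against 0.798 to 0.936 in the other isolated islets and 2.30 to 5.33 in grafts. Tfe3 was at 13.5 FPKM in isolated islet replicate 1, against 24.02 to 29.3 in the other isolated islets and 6.999 to 14.7 in grafts, and its day 120 call was kept in 16 of 25 settings. It was lost without isolated islet replicate 2, 3 or 4 or any single day 120 library. Igf2r also had replicate 1 in the graft range, at 8.75 FPKM against 14.8 to 19.2 in the other isolated islets. Tfeb was at 1.79, 3.32 and 2.53 FPKM on average and did not pass (0.68 and 0.43). For Tfeb isolated islet replicate 1 was at 3.78 FPKM, against 1.004 to 1.34 in the other isolated islets and 1.82 to 5.36 in grafts.

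Of 9 tested cystatins and other cathepsin inhibitors, 6 were higher at day 60 and 2 at day 120, with none lower. Cst3, the abundant secreted cystatin C, was at 460.2, 502, 389 and 437 FPKM in isolated islets, 2204, 768, 1128 and 839 at day 60, and 899, 759, 788 and 693 at day 120. All grafts were above all isolated islets, and the log2 differences of Cst3 were 1.34 (SE 0.29, limma adjusted p = 0.00370) and 0.81 (SE 0.29, limma adjusted p = 0.0472). For Cst3 the day 120 call was kept in 12 of 25 settings, and was lost without any single isolated islet or day 120 library. The inhibitor gene Serpina3n was 3.97 and 2.38 higher, the latter in 16 of 25 settings and not without any single isolated islet library or day 120 replicate 1, 3 or 4. These lists share their libraries with the members, and their medians and counts are descriptions only.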

How the data were processed

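Libraries were made from 10 ng of total RNA with SMARTer cDNA synthesis and 15 PCR cycles, per the labels' protocols. The deposited table holds FPKM values made by the authors, 1 per gene symbol and library. TopHat2, Cufflinks 2.1.1 and the build mm9 are named, per the submitters' processing notes, and other options are not given in the sources used here. Read counts could not be recovered from the FPKM, so no count test was run. Genes with at least 1 FPKM in at least 4 libraries (13433 of 23234) were tested as log2(FPKM + 1). The test was limma's (version 3.58.1, R 4.3.3, statmod 1.5.0), fitted to all 12 libraries by group alone, with its trend and robust options. P-values are two-sided and Benjamini-Hochberg adjusted over all these genes, and the threshold was 0.05. Both graft comparisons share the isolated islets.

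The members, gene lists and settings were chosen with earlier results of these data known. Values in every library are given for members past the threshold with the 6 smallest p in a comparison and for the most abundant member of each role. Other lists name up to 4 genes past the threshold, plus Tcirg1, Cst3, Tfeb and Npc2. Genes outside that rule, named after their values were seen, are Scarb2, Cd164, Npc1, Lyz2, Calcr, Oscar and Tm7sf4, the neutrophil markers and the members listed for isolated islet replicate 1. Mitf was also named with its values known. Same-numbered day 60 and day 120 grafts correlated from 0.18 to 0.442 in their deviations from group means (mean 0.313). Differently numbered ones correlated at most 0.098. The numbers were therefore read as pairs of those grafts, which the labels do not state, and what a shared number stands for was not tested. With the isolated islets the mean correlations were -0.028 and -0.015, so no pairs were read there.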

Additional observations from a re-analysis of the deposited data

Results flagged for a closer look

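The 32 tested members in 3 groups gave 96 groups of 4 libraries, and in 8 of them 1 library lay so far out that the ratio of its gap to the group's range exceeded Dixon's critical value. About 1 in 20 such groups would be flagged if values were independent and normally spread. FPKM of genes measured in the same libraries need not be, so that rate is only a rough guide. Of the 8, 5 concerned day 60 replicate 1. Its Ctsk was at 233.488 FPKM against 15.8 to 35.3 in the other day 60 grafts, its Ctss at 428.834 against 53.9 to 103, its Ctsh at 191.773 against 24.4 to 40.3 and its Ctsc at 93.105 against 12.2 to 25.3. The same library was lowest for Atp6v1g2, at 2.847 FPKM against 8.33 to 8.96. Among day 120 grafts, replicate 4 was highest for Ctsf, at 35.934 FPKM against 23.8 to 24.6, and for Atp6v0e2, at 62.871 against 53.7 to 54.3. Day 120 replicate 1 was highest for Atp6v0e, at 87.050 FPKM against 65.1 to 68.6.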

How the results depend on the processing

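Across 25 alternative settings 511 of 598 called member results were kept, 87 were lost, 79 others were gained and none reversed. Ctsk, Ctsh, Ctss, Ctsc and Ctsz at day 60 passed in all 25. The 4 members lower at day 60 became 7 with upper-quartile scaling, 9 without hormone and digestive enzyme genes in the sum, 7 with quantile normalization, 0 with endocrine reference scaling, 8 with array weights and 1 with the replicate block. Over all genes array weights called 23.1% lower at day 60 and the replicate block 7.49%. Shares over all genes under the 4 scalings are given with the member counts. The 7 higher at day 120 became 3 with pseudocount 5, then 4, 4 and 0 under the last 3 scalings, and 11 each with 2 groups only, array weights, the replicate block, or both isolated islet replicate 1 and day 60 replicate 1 left out. Over all genes 19.2% were higher with pseudocount 5. In the settings with 11 members the shares were 36.3%, 48.7%, 31.2% and 43%, in the same order. The 2 lower at day 120 became 1 with pseudocount 5 or no filter, 4 with upper-quartile scaling, the reduced sum or 2 groups only, 0 with endocrine reference scaling, 9 with array weights and 5 with both libraries out. The shares of all genes lower were 6.97% with pseudocount 5, 5.52% with no filter and 9.7% with 2 groups only. They were 17.9% with array weights and 13.5% with both libraries out. The 5 cathepsins higher at day 120 became 2 with pseudocount 5, 3 with the reduced sum, 0 with endocrine reference scaling and 8 with 2 groups only or the replicate block. Between day 120 and day 60, array weights gave 1 higher and 10 lower, against 7.80% higher and 13.6% lower over all genes. Their estimation stopped before it converged. The cause of these moves was not tested.

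Leaving out single libraries gave 10 to 12 members higher and 3 to 6 lower at day 60, 1 to 10 and 0 to 4 at day 120, and 0 to 0 between the grafts. Over all genes these fits called 22.7% to 37.3% higher and 7.45% to 14.2% lower at day 60. At day 120 they called 10.4% to 35.5% higher and 2.96% to 9.81% lower. Cathepsins higher ranged from 8 to 9 at day 60 and from 1 to 7 at day 120. The members higher at day 120 fell to 3, 2 and 2 without isolated islet replicates 2, 3 and 4, and to 4, 3 and 1 without day 120 replicates 1, 2 and 4. The members lower at day 120 were 0 without isolated islet replicate 2, 3 or 4, were 1 without day 60 replicate 3 or any day 120 library, and were 4 without day 60 replicate 1. Cathepsins higher at day 120 were 1 without isolated islet replicate 2, 3 or 4, and 2, 2, 3 and 1 without day 120 replicates 1 to 4. The share of all genes higher at day 120 was 11.2%, 11.5% and 10.4% without isolated islet replicates 2, 3 and 4. It was 18.6%, 14.5%, 17% and 14.1% without day 120 replicates 1 to 4. With the replicate block 1 pump gene was higher and 1 lower at day 60, and 3 and 3 at day 120. Over all genes it called 2568 higher and 1006 lower at day 60 and 4193 and 1108 at day 120. The depth is unknown, so no counting error is given.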
